A study of Mus musculus with 22 samples.

Results

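The IL-6 family examined here comprised 10 genes of the 41388 in the count files: the cytokine genes *Il6*, *Lif*, *Il11*, *Osm* and *Clcf1*, the receptor genes *Il6ra*, *Lifr*, *Osmr* and *Il11ra1*, and *Il6st*, which encodes the shared signaling subunit gp130. They were chosen by symbol and matched to their Ensembl identifiers, with no filter on their expression but with earlier results of these data known. RNA had been sequenced in 22 libraries of stromal cells from tumors of C57BL/6 mice at postnatal day 56. The libraries are labeled as coming from orthotopic MMTV-BO1 tumors, whereas the design text and the study's methods describe subcutaneous tumors. TdTomato and CD45 had been used to sort the cells into TdTOSX single positive (TdTOSX+;CD45-), double positive (TdTOSX+;CD45+), CD45 single positive (TdTOSX-;CD45+) and double negative (TdTOSX-;CD45-) populations. Each population was taken from wild type mice, which carried Osx-cre and the Ai9 reporter, and from Cdh2-cKO;Ai9 mice, in which *Cdh2* (N-cadherin) is targeted. All mice thus carried cre, which is driven by *Sp7* (Osterix) regulatory sequence in a Tet-OFF construct, and the Ai9 allele, which makes TdTomato once cre has acted in a cell or its ancestors. After its first reporter experiments, the study states, it used mice fed doxycycline, which suppresses this cre, until weaning. Its description of the RNAseq does not restate the diet. TdTOSX single positive cells had 2 libraries per genotype and the other populations had 3, giving 10 CD45- and 12 CD45+ libraries. The labels call them biological replicates, drawn from 4 wild type and 6 Cdh2-cKO mice, without stating which libraries share a mouse.

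IL-6 family cytokines signal through receptor complexes that contain gp130. IL-6 and IL-11 first bind their own alpha receptors, encoded by *Il6ra* and *Il11ra1*, whereas LIF signals through LIFR with gp130 and oncostatin M, in the mouse mainly, through OSMR with gp130. The complexes activate JAK kinases and STAT3, and in tumors these cytokines are known as mediators between fibroblasts, leukocytes and tumor cells. IL-6 can also act with a soluble form of its receptor on cells that lack the membrane form.

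Levels are given as CPM, the counts scaled by TMM-adjusted library totals (normalized CPM), and levels are compared between genes only per kilobase of exon (normalized RPKM). Differences are log2 fold changes with their standard error (SE) from edgeR's quasi-likelihood test over all 22 libraries, with a call at 0.05 or less after Benjamini-Hochberg adjustment over 15018 genes. Total counts ran from 16594228 to 26784003 per library, so that 3 counts, taken as the floor, are worth 0.103 to 0.201 CPM. The summed level of 5 leukocyte markers was 8843 to 11376 CPM in the CD45+ libraries and 170 to 5163 CPM in the CD45- libraries, where all 5 were detected. *Ptprc*, which encodes CD45, was highest among CD45- libraries in wild type double negative replicate 3, at 337 CPM, and in Cdh2-cKO TdTOSX single positive replicate 1, at 164 CPM. The 6 fibroblast markers summed to 3287 to 45108 CPM in CD45- and 49.5 to 165 CPM in CD45+ libraries. The 5 epithelial markers summed to 33.8 to 1994 CPM in CD45- libraries, and *Sp7* had at most 0.0669 CPM in any library, so that its transcript did not mark the TdTOSX+ sorts. Wild type CD45 single positive replicate 2 stood apart, with *Cd79a*, a B cell gene, at 865 CPM against at most 0.95 CPM elsewhere. Its T cell markers summed to 2020 CPM and its neutrophil markers to 848 CPM, against at most 412 and 95.8 CPM elsewhere. Its macrophage markers, at 3583 CPM, were the lowest of the CD45+ libraries. *Cdh2* was 4.52 to 9.13 CPM in the libraries labeled wild type and 12.5 to 18.4 CPM in those labeled Cdh2-cKO among CD45- cells. Since the targeted transcript was not lower under the Cdh2-cKO label, every direction between genotypes below is one between labels.

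Promoter windows of RefSeq (GRCm38.p6), from 250 bases before to 50 bases after a transcription start, were given for 8 of the 10 genes, in 11 windows; *Osm* and *Clcf1* had none. The windows of *Il6*, *Lif*, *Il11* and *Osmr* are shown because each held a match to the AP-1 motif. These 4 genes were higher in CD45- cells below, but so were *Il11ra1* and *Il6st*, whose windows held no match. Capitals mark matches to the AP-1 motif TGANTCA and, in *Il6* and *Lif*, to the 10-base NF-kappaB consensus. The windows lie at chr5:30012864-30013163 (plus strand, *Il6*), chr11:4257318-4257617 (plus, *Lif*), chr7:4778092-4778391 (minus, *Il11*) and chr15:6874264-6874563 (minus, *Osmr*), each printed 5′ to 3′ on the gene's strand.
Il6: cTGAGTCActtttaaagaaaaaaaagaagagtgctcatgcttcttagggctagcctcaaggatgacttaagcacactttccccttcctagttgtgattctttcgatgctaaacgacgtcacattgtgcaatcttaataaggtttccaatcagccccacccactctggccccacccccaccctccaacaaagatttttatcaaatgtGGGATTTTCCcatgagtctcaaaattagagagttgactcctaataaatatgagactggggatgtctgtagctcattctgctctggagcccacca
Lif: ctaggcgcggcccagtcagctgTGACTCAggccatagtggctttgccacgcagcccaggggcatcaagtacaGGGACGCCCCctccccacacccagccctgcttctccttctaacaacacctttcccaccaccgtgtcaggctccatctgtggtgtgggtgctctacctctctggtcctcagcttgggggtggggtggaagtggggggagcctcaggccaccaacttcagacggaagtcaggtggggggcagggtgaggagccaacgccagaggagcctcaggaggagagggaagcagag
Il11: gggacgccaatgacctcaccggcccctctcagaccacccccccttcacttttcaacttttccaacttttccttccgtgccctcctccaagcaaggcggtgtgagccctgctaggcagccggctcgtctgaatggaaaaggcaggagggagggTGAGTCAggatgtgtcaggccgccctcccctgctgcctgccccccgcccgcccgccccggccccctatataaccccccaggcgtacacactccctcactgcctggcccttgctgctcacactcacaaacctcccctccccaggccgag
Osmr: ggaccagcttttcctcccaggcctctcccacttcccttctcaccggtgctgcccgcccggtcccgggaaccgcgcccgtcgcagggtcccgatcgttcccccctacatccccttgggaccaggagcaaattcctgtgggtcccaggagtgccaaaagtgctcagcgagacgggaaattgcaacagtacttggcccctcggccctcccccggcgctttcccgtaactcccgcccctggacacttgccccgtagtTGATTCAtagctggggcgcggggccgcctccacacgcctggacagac
Counted from the start site, the AP-1 match begins at -249 in *Il6*, -228 in *Lif*, -98 in *Il11* and 4 in *Osmr*. The NF-kappaB match begins at -44 in *Il6* and at -178 in *Lif*, and no match overlaps another. Among the 32851 promoters in the RefSeq table, searched the same way, 7.81% held the AP-1 motif and 8.46% the NF-kappaB motif on either strand. No member window held the STAT motif TTCNNNGAA, found in 8.30% of promoters on either strand, or the cyclic AMP response motif TGACGTCA, found in 1.79%. TATAAA, searched on the gene strand and found in 8.32% of promoters, was in none of them either. The windows of *Il6ra*, *Lifr*, *Il11ra1* and *Il6st*, and the second window of *Il11*, held no match to any of these motifs. A match is a run of letters and not a measured binding site.

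The main division within the family ran along CD45. Of the 9 members that passed the filter on low counts, *Osm* and *Il6ra* were higher in CD45+ than in CD45- cells, *Osmr*, *Il11*, *Il11ra1*, *Il6st*, *Il6* and *Lif* were lower, and *Lifr* was not called. For comparison, 32.6% of all genes tested were called higher and 31.1% lower, 63.7% in all. The median difference over the 9 members was -1.64, against 0.06 over all genes. In bulk libraries, fewer cells of a type and less RNA per cell cannot be told apart, and the values below describe populations.

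**Figure D1:**
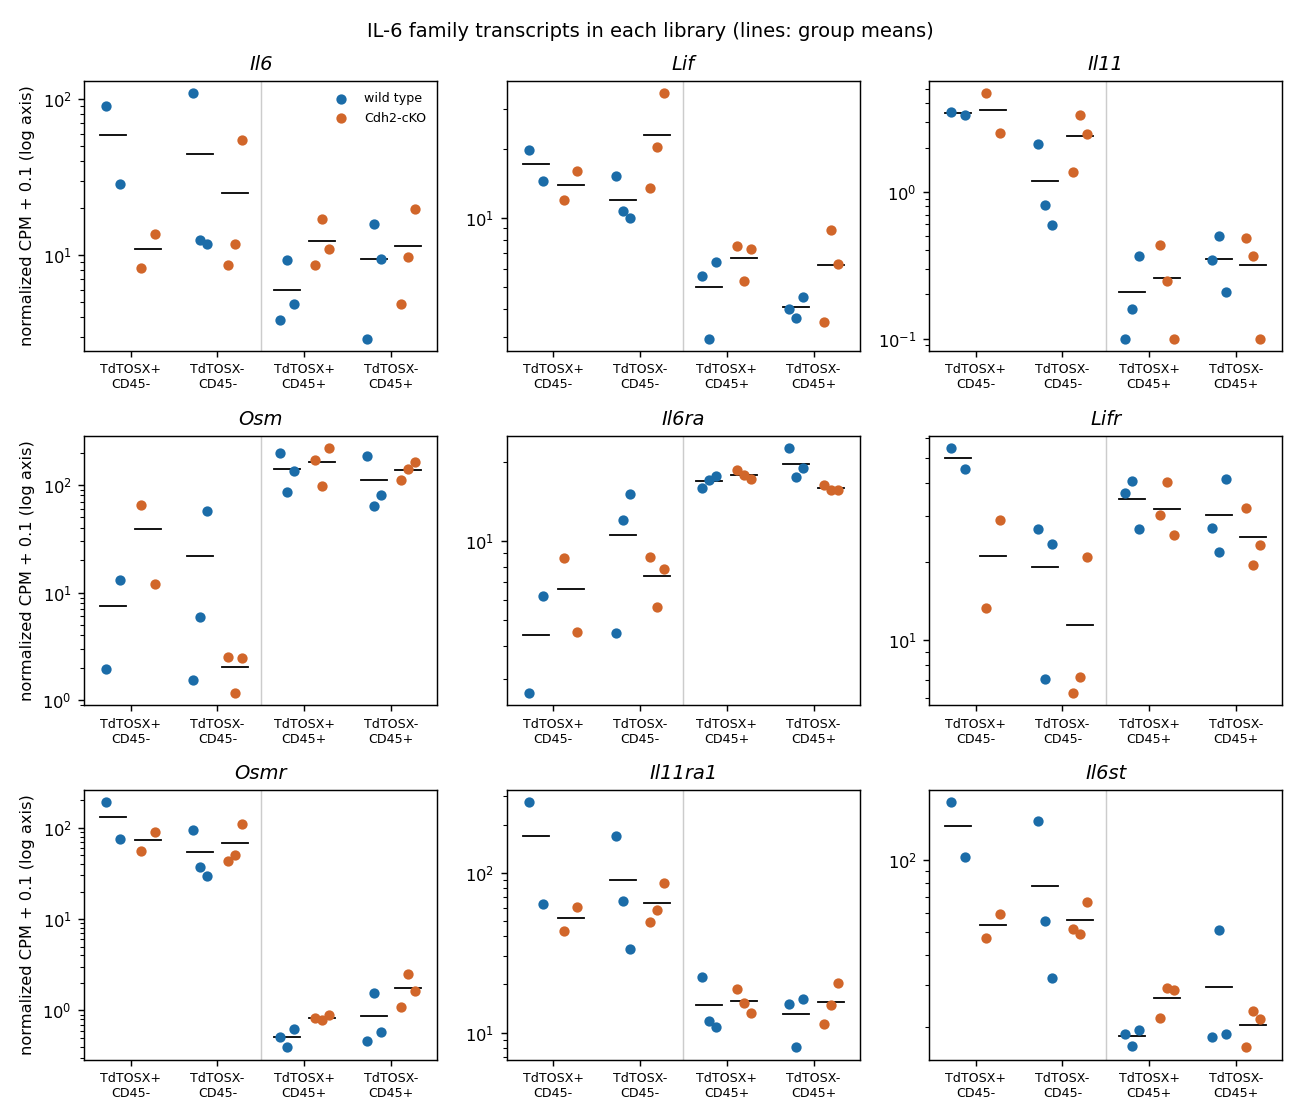
Normalized CPM plus 0.1 (log axis) of the 9 detected members in each of the 22 libraries, by sorted population (CD45- left of the grey line, CD45+ right) and genotype (colors); points are libraries and black lines group means. *Osmr* drops by more than 1 axis decade to the right of the line, *Il11* drops toward 0.1, *Osm* rises, and *Lifr* spans similar levels on both sides.

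*Il6* varied widely across libraries of the same CD45- sort. *Il6*, a cytokine of inflammation and the acute phase response (chr5:30013161-30019968 on GRCm38), was 90.0 and 28.6 CPM in wild type TdTOSX single positive cells and 8.16 and 13.5 CPM in their Cdh2-cKO counterparts. In double negative cells it was 109, 12.5 and 11.8 CPM in wild type and 8.52, 11.7 and 54.6 CPM in Cdh2-cKO libraries. Double positive cells had 3.74, 9.18 and 4.8 CPM in wild type and 8.55, 17.1 and 10.9 CPM in Cdh2-cKO. CD45 single positive cells had 2.83, 15.8 and 9.43 CPM in wild type and 4.78, 9.63 and 19.6 CPM in Cdh2-cKO. In all, 4 CD45- libraries thus stood above every CD45+ library, while the other 6 fell within the CD45+ range. The log2 fold change of CD45+ over CD45- cells was -1.64 (SE 0.46, edgeR adjusted p = 0.00509). It was -2.79 (SE 0.67, adjusted p = 0.00263) within wild type and -0.49 (SE 0.65, adjusted p = 0.558) within Cdh2-cKO, and the difference between the genotypes was not called (2.30, SE 0.93, adjusted p = 0.61). Without Cdh2-cKO double negative replicate 3, its highest library there, the Cdh2-cKO value turned to 0.17, and without wild type double negative replicate 1, the highest of all, the wild type value was -1.85 (edgeR adjusted p = 0.0125).

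*Lif*, a cytokine known for keeping embryonic stem cells undifferentiated and for its release by tumor fibroblasts (chr11:4257557-4272514), had narrower groups. It was 19.7 and 14.5 CPM in wild type and 11.8 and 15.9 CPM in Cdh2-cKO TdTOSX single positive cells. In double negative cells it was 15.2, 10.6 and 9.91 CPM in wild type and 13.4, 20.3 and 35 CPM in Cdh2-cKO. The 12 CD45+ libraries ran from 2.87 to 8.76 CPM with a median of 5.33 CPM, so that every CD45- library lay above every CD45+ library. The difference was -1.59 (SE 0.20, edgeR adjusted p = 2.81e-06), a 3.02-fold lower level in CD45+ cells, with -1.70 in wild type and -1.49 in Cdh2-cKO.

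*Il11*, a cytokine of mesenchymal tissue (chr7:4773055-4782857), had the lowest median of the detected ligands per length in CD45- cells and was near the floor in CD45+ cells. TdTOSX single positive cells had 3.42 and 3.25 CPM in wild type and 4.59 and 2.42 CPM in Cdh2-cKO. Double negative cells had 2.02, 0.716 and 0.496 CPM in wild type and 1.26, 3.25 and 2.38 CPM in Cdh2-cKO. No CD45+ library held more than 7 reads of *Il11*, and the highest reached 0.401 CPM, below the lowest CD45- library. The fitted difference was -3.67 (SE 0.52, edgeR adjusted p = 1.02e-05), and with so few reads on the CD45+ side its size is loosely determined. Its RPKM was 0.373 to 3.45 in CD45- cells, where *Lif* ran from 2.28 to 8.04 and *Il6* from 7.5 to 100.2.

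*Osm*, encoding oncostatin M, a product of activated macrophages, neutrophils and T cells (chr11:4236420-4241026), had the opposite distribution. Double positive cells had 197, 85.9 and 135 CPM in wild type and 171, 97.4 and 222 CPM in Cdh2-cKO. CD45 single positive cells had 186, 64.3 and 80.2 CPM in wild type and 112, 140 and 162 CPM in Cdh2-cKO. These were the highest levels of any member in CD45+ cells, also per length, at a median of 60.6 RPKM. In the CD45- sorts *Osm* was 1.84 and 12.9 CPM in wild type and 65.1 and 11.9 CPM in Cdh2-cKO TdTOSX single positive cells, and 1.43, 5.88 and 57.8 CPM in wild type and 2.42, 1.07 and 2.38 CPM in Cdh2-cKO double negative cells. Only 1 CD45- library, Cdh2-cKO TdTOSX single positive replicate 1, reached the lowest CD45+ library. CD45+ cells were 13-fold higher (log2 fold change 3.70, SE 0.58, edgeR adjusted p = 2.84e-05), with 3.29 in wild type and 4.11 in Cdh2-cKO. The wild type value was 4.51 without double negative replicate 3 and 4.29 without TdTOSX single positive replicate 2, and the Cdh2-cKO value was 4.96 without TdTOSX single positive replicate 1.

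The CD45- libraries with the most *Osm* were the same 2 that held the most *Ptprc*. Per 100 *Ptprc* reads there were 3.53 to 46.0 *Osm* reads in CD45+ libraries, with a median of 24.8, and 6.81 to 75.0 in CD45- libraries, with a median of 19.6. The ratios thus overlapped between the sorts, whereas *Osm* itself differed by more than 1 order of magnitude at the median. Leaving out wild type double negative replicate 3, 1 of these libraries, together with wild type CD45 single positive replicate 2 and Cdh2-cKO TdTOSX single positive replicate 1 gave a log2 fold change of 4.77, an alternative chosen after the data were seen. The part of leukocytes carried over into the CD45- sorts in the *Osm* of those libraries was not tested further.

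**Figure D2:**
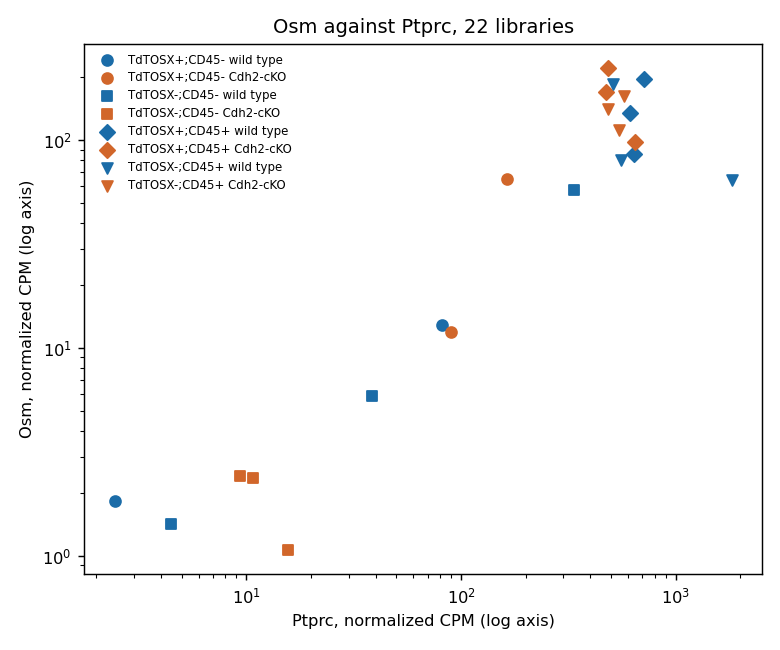
*Osm* against *Ptprc* in normalized CPM (both axes log), 1 point per library; shape gives the sorted population and color the genotype. The CD45+ libraries sit together at 64.3 to 222 CPM of *Osm*, and among the CD45- libraries those with more *Ptprc* mostly held more *Osm*, up to 65.1 CPM.

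*Clcf1*, the gene of cardiotrophin-like cytokine factor 1 (chr19:4214238-4223490), had 0 counts in all 22 libraries and was not tested. This value cannot be read as absence. The annotation used for counting also holds a copy of the gene with the same span and exon length on the patch contig MG153_PATCH, likewise at 0, and reads that align equally well to both were not counted as unique. Of the 21 genes between 4035407 and 4233631 on chromosome 19 that have such a copy, 18 had 0 counts and none had more than 3 counts summed over the 22 libraries.

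Among the receptors, *Il6ra* alone was called higher in CD45+ cells. *Il6ra*, the ligand-binding receptor for IL-6 (chr3:89869324-89913162), was held within a narrow range there: 15.7, 17.0 and 17.6 CPM in wild type and 18.4, 17.7 and 17.1 CPM in Cdh2-cKO double positive cells, and 22.5, 17.5 and 18.8 CPM and 16.2, 15.5 and 15.6 CPM in CD45 single positive cells. TdTOSX single positive cells had 2.55 and 6.08 CPM in wild type and 8.53 and 4.42 CPM in Cdh2-cKO. Double negative cells had 4.37, 11.9 and 14.9 CPM in wild type and 8.57, 5.53 and 7.75 CPM in Cdh2-cKO. All CD45+ libraries lay above all CD45- libraries, and the difference was 1.36 (SE 0.20, edgeR adjusted p = 1.72e-05), a 2.56-fold higher level. The highest CD45- library was wild type double negative replicate 3, which also held the most *Ptprc* of the CD45- sorts. In CD45- libraries there were 4.42 to 104 *Il6ra* reads per 100 *Ptprc* reads, against 0.960 to 4.41 in CD45+ libraries. The 2 ranges lay next to each other but did not overlap, with CD45- libraries above. The same comparison over all genes is not given here. *Ptprc* was as low as 2.45 CPM in CD45- libraries, which raises such ratios. The part of carried-over leukocytes in *Il6ra* was not tested.

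*Osmr*, the oncostatin M receptor subunit (chr15:6813577-6874969), showed the largest difference of the 9 members. TdTOSX single positive cells had 190 and 74.3 CPM in wild type and 55.8 and 90.7 CPM in Cdh2-cKO. Double negative cells had 93.6, 37.2 and 29.5 CPM in wild type and 43.3, 50.7 and 110 CPM in Cdh2-cKO. In the 12 CD45+ libraries it ran from 0.292 to 2.41 CPM, on 5 to 36 reads per library. CD45+ cells were 97.7-fold lower (-6.61, SE 0.33, edgeR adjusted p = 7.02e-11), with -7.21 in wild type and -6.01 in Cdh2-cKO. *Osm* and *Osmr* were therefore called in opposite directions, the ligand toward CD45+ and the receptor toward CD45- cells. Per 1000 reads of *Col1a1*, a fibroblast collagen, *Osmr* had 7.07 to 24.2 reads in CD45- and 8.65 to 56.9 reads in CD45+ libraries, so that the ratios overlapped.

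*Il11ra1*, the alpha receptor of IL-11 (chr4:41699989-41769474), followed its ligand toward CD45- cells. TdTOSX single positive cells had 276 and 63.5 CPM in wild type and 43.0 and 61.1 CPM in Cdh2-cKO. Double negative cells had 169, 66.3 and 33 CPM in wild type and 49.1, 58.2 and 85.8 CPM in Cdh2-cKO. The CD45+ libraries ran from 7.96 to 22.2 CPM with a median of 14.9 CPM and did not overlap with them. The difference was -2.52 (SE 0.29, edgeR adjusted p = 1.02e-06), with -3.15 in wild type, -2.44 without wild type TdTOSX single positive replicate 1, and -1.90 in Cdh2-cKO. These levels are uncertain, since 46.3% of the 50-base stretches of the gene also occur in its near-identical copies *Il11ra2* and *Gm13305*, and reads from them were not counted as unique.

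*Lifr*, the LIF receptor subunit (chr15:7129559-7197489), did not follow its ligand. It was 54.8 and 45.2 CPM in wild type and 13.2 and 28.8 CPM in Cdh2-cKO TdTOSX single positive cells. In double negative cells it was 26.5, 6.96 and 23.2 CPM in wild type and 6.15, 7.13 and 20.8 CPM in Cdh2-cKO. The 12 CD45+ libraries ran from 19.4 to 41.6 CPM with a median of 28.5 CPM, within the CD45- range of 6.15 to 54.8 CPM. The difference was 0.47 (SE 0.26, edgeR adjusted p = 0.121). It passed the threshold with limma's voomWithQualityWeights (0.77, adjusted p = 0.00746) and without Cdh2-cKO double negative replicate 3 (0.66, edgeR adjusted p = 0.0183). Within Cdh2-cKO it was 0.87 (SE 0.37, edgeR adjusted p = 0.0593), and it passed there with voomWithQualityWeights (1.03) and without wild type double negative replicate 2 (0.87, adjusted p = 0.0309), Cdh2-cKO TdTOSX single positive replicate 2 (1.20, adjusted p = 0.0384) or Cdh2-cKO double negative replicate 3 (1.25, adjusted p = 0.00631).

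*Il6st*, whose product gp130 is shared by all of these receptors (chr13:112464070-112510086), was found in every library. TdTOSX single positive cells had 175 and 103 CPM in wild type and 47.4 and 59.3 CPM in Cdh2-cKO. Double negative cells had 146, 55.5 and 32.1 CPM in wild type and 51.6, 49.1 and 67.1 CPM in Cdh2-cKO. The CD45+ libraries ran from 16.4 to 29.2 CPM, apart from wild type CD45 single positive replicate 2, at 51.2 CPM. That is the library that stood apart in B cell, T cell and neutrophil markers. The difference was -1.70 (SE 0.24, edgeR adjusted p = 8.80e-06), 3.25-fold lower in CD45+ cells, with -2.17 in wild type and -1.23 in Cdh2-cKO. *Il6st* thus differed less than *Osmr* on the log2 scale, and both sorts kept a measurable level.

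Reads of the members in CD45+ libraries were also set against those of *Col1a1*, which was 21.3 to 68.2 CPM there. For *Il6* there were 1.38 to 10.9 reads per 1000 *Col1a1* reads in CD45- libraries and 70.1 to 478 in CD45+ libraries. For *Il6st* there were 6.03 to 26.3 and 240 to 936 reads, and for *Lif* 0.883 to 8.13 and 49.96 to 295 reads. These did not overlap between the sorts, and neither did the ratios of *Osm*, *Il6ra*, *Lifr* and *Il11ra1*. The ratios that overlapped were those of *Osmr*, given above, and *Il11*, with 0.153 to 1.05 reads in CD45- and 0 to 12.4 in CD45+ libraries. *Col1a1* itself was 1219 to 22366 CPM in CD45- libraries, so that the ratios also differ where a member does not, as for *Lifr*. The share of all genes with separated ratios is not given here. The part of fibroblasts carried over into the CD45+ sorts was not tested.

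In all, 4 members lay above every CD45+ library in every CD45- library (*Lif*, *Il11*, *Osmr* and *Il11ra1*) and *Il6ra* did so in the other direction, while *Il6*, *Osm*, *Lifr* and *Il6st* overlapped. Over all genes tested, 11.0% were separated with CD45- above and 3.71% with CD45+ above. Within wild type, 2 members were called higher in CD45+ cells and 6 lower, against 25.3% and 25.7% of all genes, 51.1% in all. Within Cdh2-cKO, 2 were higher and 5 lower, against 23.6% and 27.1%, 50.7% in all. The member called in wild type only was *Il6*, whose difference between the genotypes was not called.

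**Figure D3:**
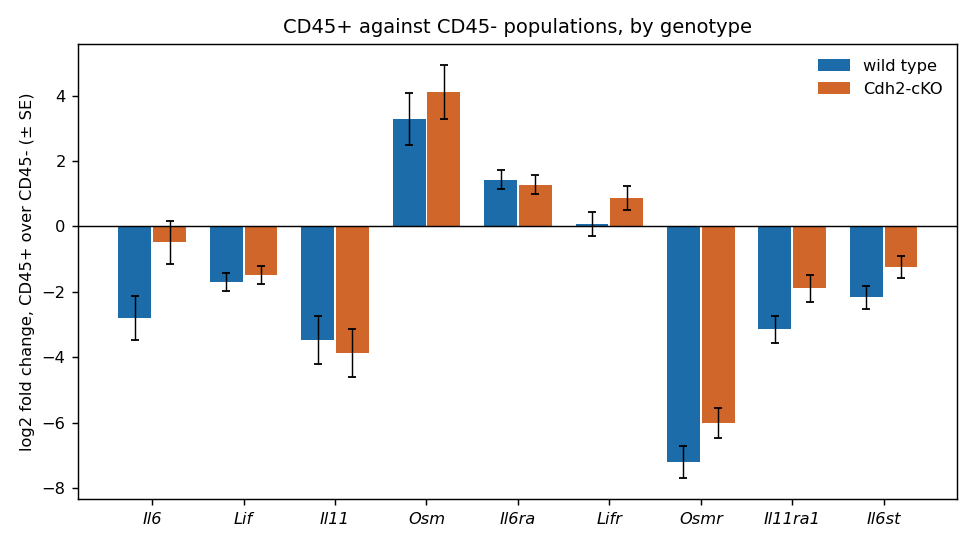
Log2 fold changes of CD45+ over CD45- cells (bars, error bars SE from the edgeR fit) for the 9 members, in wild type and Cdh2-cKO. Both bars of each member point the same way, with *Osmr* at -7.21 and -6.01 and *Osm* at 3.29 and 4.11, and *Il6* and *Lifr* each have 1 bar whose SE spans 0.

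Per length, the order of the receptors differed between the sorts. In CD45- cells the median RPKM was 13.9 for *Il11ra1*, 5.37 for *Osmr*, 5.17 for *Il6st*, 2.13 for *Lifr* and 2.07 for *Il6ra*. In CD45+ cells it was 5.17 for *Il6ra*, 3.34 for *Il11ra1*, 2.76 for *Lifr*, 1.85 for *Il6st* and 0.0577 for *Osmr*. The place of *Il11ra1* in this order is uncertain, since 46.3% of its 50-base stretches are shared with other genes, against 2.29% for *Il6ra*. Reads from shared stretches were not counted, while the full exon length was used. The ranges of *Osmr* and *Il6st* in CD45- cells, 2.44 to 15.7 and 2.89 to 15.8, overlapped almost wholly, as did those of *Lifr* and *Il6ra*. In CD45+ cells each receptor overlapped with its neighbors in this order except *Osmr*, whose highest library, at 0.199, lay below the lowest of *Il6st*, at 1.47. Among the ligands, *Il6* led in CD45- cells with a median of 12 RPKM, followed by *Lif* with 3.40, *Osm* with 1.83 and *Il11* with 1.80. In CD45+ cells *Osm* led with 60.6, followed by *Il6* with 8.56, *Lif* with 1.23 and *Il11* with 0.145. The ranges of neighboring ligands in this order overlapped in CD45- cells and did not in CD45+ cells, where they were 28.3 to 97.6 for *Osm*, 2.60 to 18.0 for *Il6*, 0.659 to 2.01 for *Lif* and 0 to 0.302 for *Il11*.

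**Figure D4:**
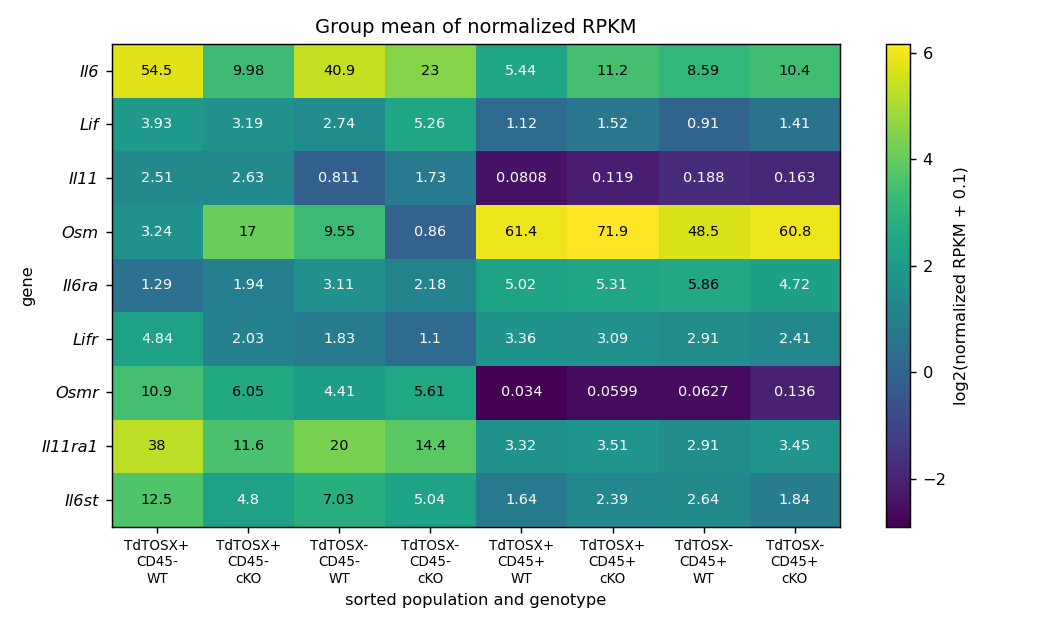
Group means of normalized RPKM (number in each cell; color, log2 of RPKM plus 0.1) for the 9 detected members, by sorted population and genotype. *Osm* has its highest means, 48.5 to 71.9, in the 4 CD45+ groups, where *Osmr* is at most 0.136. The means of *Il11ra1* and *Il6* are largest in wild type TdTOSX single positive cells, at 38 and 54.5. The 2 libraries there differ widely, at 61.8 and 14.2 for *Il11ra1* and 82.8 and 26.3 for *Il6*. The highest single library of *Il6* is wild type double negative replicate 1, at 100.2.

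The TdTOSX label was compared within each CD45 class, since it was the label of interest of the study. Between TdTOSX single positive and double negative cells no member was called by edgeR or DESeq2, which called 1.89% and 6.58% of all genes. limma's voomWithQualityWeights called 1 member and 4.78% of all genes. An unadjusted edgeR p under 0.05 was found for 2 of the 9 members and for 19% of all genes. The 2 were *Lifr*, with a log2 fold change of TdTOSX+ over TdTOSX- cells of 1.14 (SE 0.38, edgeR adjusted p = 0.112), and *Il6ra* (-0.71, SE 0.30, adjusted p = 0.201). *Lifr* ran from 13.2 to 54.8 CPM in the 4 TdTOSX single positive libraries and from 6.15 to 26.5 CPM in the 6 double negative libraries. It passed with voomWithQualityWeights (1.63, adjusted p = 0.0304) and without Cdh2-cKO double negative replicate 3 (1.53, edgeR adjusted p = 0.0369). *Il6ra* passed without wild type double negative replicate 1 (-0.90, edgeR adjusted p = 0.0493). *Osm* passed without wild type double negative replicate 3 (2.66, edgeR adjusted p = 0.0214, against 1.37 and 0.318 with it), the library with the most *Ptprc* of the CD45- sorts. Its value moved the other way, to 0.37 and 0.53, without wild type TdTOSX single positive replicate 2 or Cdh2-cKO TdTOSX single positive replicate 1.

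Of the 9 detected members, 8 had a larger median in TdTOSX single positive than in double negative cells, with *Lif* and *Il11ra1* nearly tied, and *Il6ra* a smaller one. The same count over all genes is not given here. Besides *Lifr*, the medians were 12.4 against 2.40 CPM for *Osm*, 3.34 against 1.64 for *Il11*, 82.5 against 47.0 for *Osmr*, 81.1 against 53.6 for *Il6st*, 21 against 12.1 for *Il6*, 15.2 against 14.3 for *Lif* and 62.3 against 62.2 for *Il11ra1*. None of them was called by edgeR, with log2 fold changes of 1.11 (SE 0.66) for *Il11*, 0.71 (SE 0.39) for *Osmr*, 0.38 (SE 0.35) for *Il6st* and 0.31 (SE 0.42) for *Il11ra1*. The fitted values of *Il6* (-0.40, SE 0.69) and *Lif* (-0.10, SE 0.29) had the opposite sign to their medians. *Col1a1* ran from 5563 to 22366 CPM in TdTOSX single positive and 1219 to 10015 CPM in double negative libraries, and its part in these values was not tested. Between double positive and CD45 single positive cells no member was called by edgeR, DESeq2 or voomWithQualityWeights, which called 0.00666%, 0.0402% and 0.00666% of all genes. The 1 member with an unadjusted p under 0.05, against 4.06% of all genes, was *Osmr* (-1.02, SE 0.45), on 5 to 14 reads per double positive library and 6 to 36 per CD45 single positive library.

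Each population was also set against the mean of the other 3. In TdTOSX single positive cells *Osmr* (4.88, SE 0.30), *Il11* (3.19, SE 0.51), *Il11ra1* (1.89, SE 0.32), *Il6st* (1.39, SE 0.27) and *Lif* (1.0, SE 0.24) were higher and *Il6ra* (-1.38, SE 0.27) was lower, where edgeR called 23.9% of all genes higher and 14.2% lower, 38.1% in all. Without wild type TdTOSX single positive replicate 2 or wild type double negative replicate 1, 2 members were lower. In double negative cells 6 members were higher, the same 5 and *Il6* (1.35, SE 0.48), and *Osm* (-3.38, SE 0.68) and *Lifr* (-1.07, SE 0.30) were lower, against 25.8% and 22.6% of all genes, 48.4% in all. Without wild type double negative replicate 1, which held the most *Il6*, 3 members were called higher there. Double positive cells and CD45 single positive cells each had *Osm* and *Il6ra* higher and *Lif*, *Il11*, *Osmr*, *Il11ra1* and *Il6st* lower, where edgeR called 20.8% and 22.2% of all genes higher and 22.4% and 18.1% lower, 43.2% and 40.3% in all. The comparisons share libraries and are given side by side.

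The genotypes were compared within each population. No member was called between Cdh2-cKO and wild type in any of the 4 populations by edgeR, which called 1 gene, 0.00666% of those tested, in TdTOSX single positive cells and 0 in the others. With voomWithQualityWeights neither a member nor any other gene was called. DESeq2 called 1 member in double negative cells, where it called 3.50% of all genes. It called 0 members in TdTOSX single positive, double positive and CD45 single positive cells, against 0.898%, 0.00670% and 0.174% of all genes. Unadjusted edgeR p-values were under 0.05 for 3 of the 9 members in TdTOSX single positive cells and 2 in double negative cells, against 10.5% and 9.60% of all genes, and for 0 in double positive and CD45 single positive cells, against 3.43% and 9.81%. The 3 were *Il6* (-2.45, SE 1.11, edgeR adjusted p = 0.462), *Il11ra1* (-1.71, SE 0.67, adjusted p = 0.415) and *Il6st* (-1.38, SE 0.55, adjusted p = 0.42), given as log2 fold changes of Cdh2-cKO over wild type. Without wild type TdTOSX single positive replicate 1 the value of *Il11ra1* was -0.29 and that of *Il6* -1.40, and without wild type replicate 2 they were -2.41 and -3.05, none of them called. In 4 of the 9 members, *Il6*, *Il6st*, *Lifr* and *Il11ra1*, both wild type libraries lay above both Cdh2-cKO libraries, and no member was separated the other way. Of all genes tested, 20.7% were separated with wild type above and 21.4% with Cdh2-cKO above. For *Il11ra1* the gap was small, with wild type replicate 2 at 63.5 and Cdh2-cKO replicate 2 at 61.1 CPM. *Col1a1* was also higher in the wild type libraries, at 22366 and 10511 against 5563 and 9824 CPM, and *Krt18*, an epithelial keratin, was lower in 1 of them, at 17.8 CPM against 432 to 693 CPM. The part of these differences in composition in the values of the members was not tested.

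In double negative cells the 2 members were *Lif*, with a log2 fold change of Cdh2-cKO over wild type of 0.94 (SE 0.37, edgeR adjusted p = 0.351), and *Osm*, with -3.47 (SE 1.04, adjusted p = 0.182). *Osm* was called there by DESeq2 (-3.37, adjusted p = 0.00931) and by edgeR without wild type double negative replicate 1 (-4.02, adjusted p = 0.0202), not by voomWithQualityWeights (-1.8, adjusted p = 0.717). Without wild type double negative replicate 3, the library with the most *Osm* and *Ptprc* of that sort, it was -0.87 and not called. The 3 wild type libraries differed in *Ptprc*, at 4.46, 38.6 and 337 CPM, whereas the Cdh2-cKO libraries had 9.31, 15.7 and 10.8 CPM. No member was called for a difference between genotypes in the CD45 or the TdTOSX comparisons by edgeR, which called 0 genes for CD45, 0.00666% for TdTOSX within CD45- cells and 0 for TdTOSX within CD45+ cells. An unadjusted p under 0.05 was found for 2, 1 and 0 members in these 3 comparisons, against 7.70%, 10.1% and 4.36% of all genes. The 1 within CD45- cells was *Osm* (5.84, SE 1.60, edgeR adjusted p = 0.142), called by DESeq2 (5.71, adjusted p = 0.00421), which called 3.74% of all genes there and 0.201% and 0 in the other two comparisons, and by edgeR without wild type double negative replicate 1 (6.39, adjusted p = 0.0166). It was 4.13 with voomWithQualityWeights, 3.24 without wild type double negative replicate 3, 4.15 without Cdh2-cKO TdTOSX single positive replicate 1 and 7.85 without wild type TdTOSX single positive replicate 2, none of them called. Without wild type double negative replicate 3, Cdh2-cKO TdTOSX single positive replicate 1 and wild type CD45 single positive replicate 2, an alternative chosen after the data were seen, it was 1.54 (edgeR adjusted p = 1). Among CD45- libraries, *Ptprc* was highest in 1 double negative library in wild type and in 1 TdTOSX single positive library in Cdh2-cKO. The part of carried-over leukocytes in this *Osm* value was not tested.

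Other genes of the pathway were read from a list of 40, of which 35 were tested. Between CD45+ and CD45- cells 17 were higher, 10 lower and 8 not called, where edgeR called 32.6% of all genes higher and 31.1% lower. Among 13 other ligands and receptors of the family, 8 were tested, 6 higher in CD45+ cells and 2 lower. *Ebi3* (3.38, SE 0.56) and *Il12a* (3.50, SE 0.69), which encode subunits of heterodimeric cytokines, and *Ctf2* (3.62, SE 0.64), a cardiotrophin gene, were higher. The sheddases *Adam10* (1.30, SE 0.19) and *Adam17* (1.10, SE 0.15), which can release soluble IL-6 receptor, were both higher in CD45+ cells, as was *Il6ra*.

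Of 8 signal transducers, 2 were higher in CD45+ cells, 2 lower and 4 not called. *Tyk2* (1.27, SE 0.15), a JAK family kinase, was among the higher ones, and *Ptpn11* (-0.80, SE 0.14) and *Shc1* (-0.54, SE 0.08), which link gp130 to the MAPK pathway, were lower. Of 5 inhibitors, *Cish* (2.04, SE 0.38) and *Socs2* (0.63, SE 0.23) were higher, *Pias3* (-1.25, SE 0.15) was lower and 2 were not called. Of 12 target genes, 5 were higher and 5 lower. *Mcl1* (1.68, SE 0.20), a survival factor, and *Pim1* (2.04, SE 0.28), a kinase, were higher, whereas *Timp1* (-3.06, SE 0.27), a protease inhibitor, and *Saa3* (-3.68, SE 0.54), an acute phase protein, were lower.

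Between TdTOSX single positive and double negative cells, 2 of the 35 pathway genes were higher and none was lower by edgeR, against 1.23% and 0.659% of all genes. They were *Junb* (1.70, SE 0.27, adjusted p = 0.00579), a member of the AP-1 family, and *Socs3* (0.87, SE 0.20, adjusted p = 0.0383), the feedback inhibitor of gp130, and both were named after their values were seen. Between the genotypes edgeR called none of the 35 in any population, with 8, 1, 4 and 6 at an unadjusted p under 0.05 in TdTOSX single positive, double positive, CD45 single positive and double negative cells, against 10.5%, 3.43%, 9.81% and 9.60% of all genes.

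The genes outside the family whose log2 CPM followed each member most closely over the 22 libraries are given as a description, since the libraries share sorts and composition. *Osm* was followed by *Cd83* and *Runx3* (Pearson r of 0.99 and 0.99), and *Il6ra* by *Msra* and *Ptpre* (0.95 and 0.95). *Osmr* was followed by *Fermt2* and *Sparc* (0.99 and 0.99), *Il11* by *Pxylp1* and *Loxl4* (0.95 and 0.94) and *Lif* by *1810055G02Rik* and *Dusp8* (0.94 and 0.94). *Il11ra1* was followed by *Galnt17* and *5330416C01Rik* (0.97 and 0.97) and *Il6st* by *Txndc5* and *Pip5k1a* (0.96 and 0.96). The lowest best values were those of *Lifr*, with *Socs2* and *Scarb2* (0.89 and 0.88), and *Il6*, with *Gm12407* and *Col6a5* (0.84 and 0.83).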

How the data were processed

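The RNAseq libraries were prepared from SMARTer-amplified cDNA and sequenced as single 50-base reads. Per the labels and the study's methods, the authors aligned reads to GRCm38 with STAR 2.0.4b and used featureCounts to assign reads with a unique alignment to a single Ensembl gene. The kit does not keep strand. The deposited counts are raw. The authors also deposited CPM and RPKM values computed from these counts, which were checked against them and not otherwise used.

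After removal of rRNA genes and of those above 1 CPM in fewer than 2 libraries, 15018 remained. Counts were normalized with TMM factors and tested in R 4.3.3 with edgeR 4.0.16 (quasi-likelihood, 8 groups of population and genotype); limma 3.58.1 (voomWithQualityWeights, the test of the study) and DESeq2 1.42.0 were alternatives, as were other filters, RLE factors, a fold threshold, a replicate block and leaving out libraries. Shares of all genes called by DESeq2 are of the 14917 genes it gave an adjusted p. The edgeR fit was tested on simulated data for the CD45 comparison only, with independent libraries and a small set of changed genes. The other comparisons were not tested in this way. P-values measure the spread between libraries, and floors cover counting error only. Members, pathway genes and markers were chosen with earlier results of these data known. Named were all 10 members, up to 4 genes of each pathway subgroup with the smallest adjusted p between CD45+ and CD45- cells, and the 2 genes most correlated with each member. Some genes of the pathway list are not reported here by name.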

Additional observations from a re-analysis of the deposited data

How the results depend on the processing

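In the CD45 comparison over both genotypes, the 8 calls and their directions held under each alternative run on that comparison except the added fold threshold, with *Osm* between 3.50 and 4.77, *Il6ra* between 1.23 and 1.55, *Osmr* between -7.03 and -6.40 and *Il6* between -2.05 and -1.17. Requiring in addition an absolute log2 fold change of at least 2 left 1 member higher and 3 lower there, 1 higher in wild type, and 1 higher and 2 lower in Cdh2-cKO. Against the other 3 populations it left 2 higher and 0 lower in TdTOSX single positive, 1 and 2 in double positive, 1 and 1 in CD45 single positive and 1 and 1 in double negative cells. With voomWithQualityWeights 1 member was higher in TdTOSX single positive than in double negative cells. DESeq2 called 1 member lower in Cdh2-cKO double negative cells, 2 lower in TdTOSX single positive cells against the rest, and 1 higher for the genotype difference of the TdTOSX effect within CD45- cells. Without wild type CD45 single positive replicate 2 and wild type double negative replicate 3, 1 member was higher in TdTOSX single positive than in double negative cells, and without Cdh2-cKO TdTOSX single positive replicate 1 as well (chosen after seeing the data) 2 were lower in TdTOSX single positive cells against the rest. The cause of these changes was not tested.

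Leaving out 1 library at a time gave 0 to 1 members higher and 0 to 1 lower for TdTOSX within CD45- cells, 0 to 1 lower in Cdh2-cKO double negative cells, 1 to 2 lower in TdTOSX single positive and 3 to 6 higher in double negative cells against the rest, and 0 to 1 higher for the genotype difference within CD45- cells. Of the uncalled differences, 5 changed sign: within CD45- cells the TdTOSX effect on *Il6* ranged from -0.92 to 0.54 (0.32 with voomWithQualityWeights), on *Lif* from -0.24 to 0.12 and on *Il11ra1* from -0.40 to 0.73, the CD45 effect on *Lifr* in wild type from -0.13 to 0.23, and that on *Il6* in Cdh2-cKO from -0.81 to 0.17. An arm left with 1 library was assumed to vary like the other groups.

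Replicate numbers did not pair the libraries: of 71 same-numbered pairs 12 had deviations correlated above 0.1, with a median of -0.02. Of 140 different-numbered pairs it was 25, with a median of 0.003. Which libraries share a mouse was not known, and the main fit treated all as independent. With the number as a replicate block, 2 members were higher and 6 lower between CD45+ and CD45- cells, and the uncalled TdTOSX effect on *Lif* within CD45- cells was 0.0168.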
